A study of Caenorhabditis elegans with 11 samples.

Results

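The genes described here are those whose signal lay on the same side of the control with all 3 betaxanthins, namely tryptophan-betaxanthin, its methyl ester and its benzyl ester. They were chosen by order alone: a probe set was counted when all 9 arrays of compound-treated nematodes lay above, or all below, both arrays of water-treated nematodes, and was ranked by the smallest of the 3 group differences from the control. Of 26761 probe sets listed with a gene, 1258 lay above the control in this way (4.7%) and 1112 lay below it (4.16%). All values are log2 RMA signals, in which a difference of 1 is a doubling, and a difference is always treated minus control.

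Betaxanthins are yellow plant pigments in which an amino acid or an amine is joined to betalamic acid, and the 3 compounds differ in the carboxyl group of tryptophan, which is free, methylated or benzylated. Whole Caenorhabditis elegans animals of strain JK1466, genotype gld-1(q485) over dpy-5(e61) unc-13(e51), were treated from the L1 larva, 16 to 18 h after hatching, with 25 µM of 1 compound for 48 h at 20 °C in liquid S medium, and were collected as L4 larvae or young adults. The control received the same volume of water, and all groups, the control included, were fed E. coli HT115 bacteria that carry an RNAi construct against gld-1, a repressor of translation whose loss lets germ cells return to mitosis and form a tumour. Each compound was measured in 3 independent trials and the control in trials 1 and 2; a control array of trial 3 was not analysed here. A balanced strain segregates animals of several genotypes, and the arrays read whole animals, so that fewer cells of a type and less RNA per cell cannot be told apart.

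The array medians ran from 2.23 to 2.32. RMA includes quantile normalisation, which makes the arrays alike in scale, so these medians cannot show whether an array stood apart. The lowest correlation between any 2 arrays was 0.960. The gene targeted in all groups, gld-1, gave 7.33 and 7.43 in the control, 7.12, 7.45 and 7.14 with tryptophan-betaxanthin, 6.74, 7.33 and 5.91 with the methyl ester and 6.44, 5.50 and 6.27 with the benzyl ester. The benzyl ester arrays lay below the control, as did the methyl ester arrays of trials 1 and 3, at 6.74 and 5.91. The methyl ester array of trial 2 was level with the lower control array, and the tryptophan-betaxanthin arrays ran from 7.12 to 7.45. The mean difference of -0.72 did not pass (limma, adjusted p = 0.467). With trial 3 left out, the benzyl ester difference was -1.41 and passed (limma, adjusted p = 0.0288). Those of tryptophan-betaxanthin (-0.09) and the methyl ester (-0.34) did not. An array of untreated wild-type nematodes was not analysed here, so these values do not check the knock-down. The third-trial arrays of both esters stood apart in many of the genes below. Among the members above the control, treated arrays of trial 3 exceeded those of trials 1 and 2 by a median of 0.23, and among those below they were lower by a median shift of -0.41, against 0.01 over all probe sets. As trial 3 has no control array here, the part of the trial in these shifts cannot be told apart from that of the compounds.

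The nematode cuticle is rebuilt at each larval moult. Before the new collagens are laid down, the epidermis secretes a transient precuticle of lipocalins, zona pellucida proteins and leucine-rich repeat proteins, and many of its genes are switched on in a pulse once per larval stage. The sperm, oocyte and yolk genes, in contrast, are turned on in the last larval stage and in the adult. Cuticle and precuticle genes were among the first of the commonly raised genes. Enzymes of propionate and peroxisomal fatty acid breakdown were among those whose mean difference passed the test across all genes. The commonly lowered genes included sperm genes and dct-7, a gene named for its effect on germline tumours.

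The signal was higher by at least 1 log2 unit with every compound for 17 probe sets. The ranked genes were those with a signal at or above the median of all probe sets in at least 1 group. Of the 16 ranked first, led by ins-35 and gst-35, 4 were lipocalin-related genes (lpr-3, lpr-4, lpr-5 and lpr-6), and others were dpy-3, a cuticle collagen, noah-1, a zona pellucida protein of the apical matrix, sym-1, a secreted leucine-rich repeat protein, srf-5, known from mutants with altered surface antigens, and glf-1, the UDP-galactopyranose mutase that makes galactofuranose for surface glycans.

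For lpr-5, arrays of trials 1, 2 and, where present, 3 gave 4.81 and 4.71 in the control, 6.16, 5.93 and 6.61 with tryptophan-betaxanthin, 6.48, 6.50 and 8.03 with the methyl ester and 5.99, 6.69 and 7.94 with the benzyl ester. In the same order lpr-6 gave 4.45 and 4.52 in the control, then 5.73, 5.68 and 5.94, then 5.86, 6.07 and 7.07, and then 6.05, 5.93 and 7.36. In both genes the groups left a wide gap to the control, and the trial 3 arrays of the esters were the highest. lpr-4 followed the same order, with 4.85 and 4.98 in the control, 5.91, 5.90 and 6.19 with tryptophan-betaxanthin, 6.42, 6.65 and 7.91 with the methyl ester and 6.17, 6.28 and 7.97 with the benzyl ester. lpr-3 gave 4.63 and 4.99 in the control, 5.84, 5.86 and 6.30 with tryptophan-betaxanthin, 6.36, 6.45 and 7.71 with the methyl ester and 5.31, 6.28 and 7.66 with the benzyl ester. Here the first benzyl ester array came nearest to the control. In the RefSeq annotation of assembly WBcel235 these 4 genes are consecutive protein-coding genes, in the order lpr-3, lpr-6, lpr-5 and lpr-4. Neighbouring members were found elsewhere as well: the next gene was also a member for 9.41% of the 1031 protein-coding genes above the control, which made up 5.46% of such genes, and for 8.87% of the 992 below, which made up 5.25%.

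The lpr differences averaged over the compounds ranged from 1.61 ± 0.52 (SE) for lpr-3 to 1.94 ± 0.49 for lpr-5, and did not pass the test across all genes (limma, adjusted p = 0.363 and 0.245). With the third trial left out, lpr-4, lpr-5 and lpr-6 passed with each of the 3 compounds. The mean difference of lpr-5 was then 1.53 ± 0.16, with a limma adjusted p of 0.00354, the lowest of a range over the alternatives that reached 0.909. Between the esters lpr-5 differed by 0.13 with a 95% interval of -1.02 to 1.28, which leaves room for a difference of a log2 unit in either direction. The methyl ester minus tryptophan-betaxanthin difference was 0.77 (-0.38 to 1.92).

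noah-1 gave 6.68 and 6.75 in the control, 7.69, 7.55 and 8.03 with tryptophan-betaxanthin, 7.74, 8.18 and 9.28 with the methyl ester and 7.03, 7.01 and 9.21 with the benzyl ester. The collagen dpy-3 gave 3.51 and 3.92, then 4.71, 5.05 and 5.4, then 5.53, 5.39 and 6.55, and then 4.36, 5.64 and 6.55. In both, the first benzyl ester array was among the treated arrays nearest to the control and the third-trial ester arrays were far above. glf-1 was less dependent on the trial, with 6.41 and 6.48 in the control, 7.35, 7.53 and 7.74 with tryptophan-betaxanthin, 7.69, 7.58 and 8.24 with the methyl ester and 7.75, 7.89 and 8.25 with the benzyl ester. It rose by 1.33 ± 0.18 (SE; limma, adjusted p = 0.0326). The ester minus tryptophan-betaxanthin differences of glf-1 were 0.30 (-0.13 to 0.72) and 0.42 (-0.00 to 0.85), and neither passed.

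**Figure D1:**
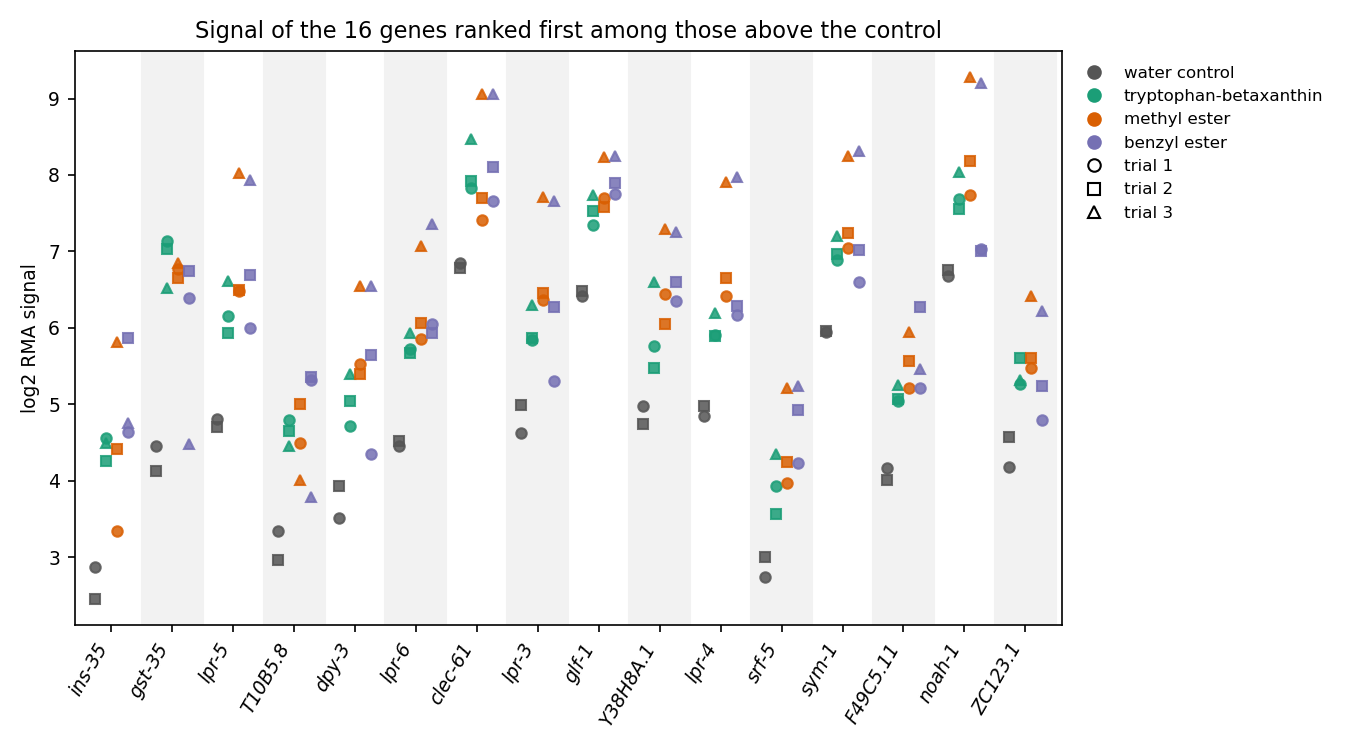
Log2 RMA signal (y axis) of the 16 genes ranked first among those above the control (x axis, in rank order); each point is 1 array, coloured by group, with a marker for each trial. The 9 treated arrays of each gene lie above both control arrays by construction, and the third-trial arrays of the methyl and benzyl esters are the highest in lpr-5, lpr-6, lpr-4 and noah-1, whereas the third-trial benzyl ester array of gst-35, at 4.48, lies next to the control.

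The gene ranked first, ins-35, encodes an insulin-like peptide. Its signals were 2.87 and 2.45 in the control, 4.56, 4.26 and 4.49 with tryptophan-betaxanthin, 3.35, 4.42 and 5.81 with the methyl ester and 4.64, 5.87 and 4.76 with the benzyl ester. The methyl ester arrays alone spanned more than 2 log2 units, so that the mean rise of 2.02 ± 0.51 did not pass (limma, adjusted p = 0.248). gst-35, a glutathione S-transferase, gave 4.45 and 4.13 in the control, 7.14, 7.03 and 6.52 with tryptophan-betaxanthin, 6.77, 6.65 and 6.85 with the methyl ester and 6.39, 6.75 and 4.48 with the benzyl ester. Of its 9 treated arrays 8 were high, and the third-trial benzyl ester array was at the level of the control (mean difference 2.21 ± 0.46; limma, adjusted p = 0.144). The remaining genes in this ranking were clec-61, which encodes a C-type lectin domain, and T10B5.8, Y38H8A.1, F49C5.11 and ZC123.1, whose group differences ranged from 1.02 to 1.88.

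At the edge of the rule the values are small. W02A2.11 was the member nearest to the control above it, and mboa-7 the nearest that failed; their differences were 0.18 and 0.14 with tryptophan-betaxanthin, 0.50 and 0.44 with the methyl ester and 0.30 and 0.41 with the benzyl ester. On the lower side these were Y51B9A.5, with -0.53, -0.45 and -0.46, and F59E12.9, with -0.12, -0.56 and -0.50. The smallest group difference was under 0.2 in 456 of the probe sets above and 248 of those below, and at least 0.5 in 192 and 277. Tryptophan-betaxanthin gave the smallest difference in 923 of the 1258 above and in 760 of the 1112 below, and the median differences above were 0.28 with it and 0.50 and 0.51 with the methyl and benzyl esters. Below they were -0.37, -0.61 and -0.61.

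Groups of genes are described by the number of their measured genes that lay above or below. Over all 26128 genes 4.72% lay above and 4.18% below, with a median difference of 0.01. As the rule and these counts come from the same contrast, the shares are descriptions and carry no test. In the moulting list, 13 of 25 genes lay above and none below, with a median difference of 0.55. The 13 included noah-1 and noah-2, the moulting-defective genes mlt-8, mlt-9 and mlt-10, the fibrillin-like fbn-1, the patched-related ptr-4, the transcription factor myrf-1 and the nuclear receptor nhr-25. None of the 13 passed the test of the mean of the compounds. mlt-8 gave 7.80 and 7.76 in the control, 7.95, 8.16 and 8.47 with tryptophan-betaxanthin, 8.50, 8.64 and 9.33 with the methyl ester and 8.53, 8.57 and 9.30 with the benzyl ester. Its tryptophan-betaxanthin arrays were the nearest to the control, which by the rule no treated array reaches.

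Among 169 cuticle collagens, 36 lay above and 3 (col-8, col-139 and col-181) below, with a median of 0.17. All 5 measured collagens of the annular furrows, dpy-2, dpy-3, dpy-7, dpy-8 and dpy-9, lay above; this group was put together after their values were seen. Their median array differences from the control mean ran from 0.64 to 2.49 in the treated arrays and from -0.06 to 0.06 in the control. dpy-7 gave 4.64 and 4.61 in the control, 5.21, 5.05 and 5.72 with tryptophan-betaxanthin, 5.53, 5.54 and 6.48 with the methyl ester and 5.47, 5.90 and 6.38 with the benzyl ester. No collagen passed in the mean of the compounds. Of 87 hedgehog-related genes, which code for secreted warthog, groundhog and ground-like proteins and the patched-related receptors, 24 lay above and none below, with a median of 0.26. The warthog gene wrt-10 gave 5.44 and 5.44, then 6.22, 6.26 and 6.41, then 6.88, 6.58 and 7.29, and then 6.38, 6.93 and 7.54 in the 4 groups. Its treated arrays lay at least 0.78 above the control and its mean rise was 1.28 ± 0.25 (limma, adjusted p = 0.126).

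Of 14 markers of the hypodermis, the epidermis that makes the cuticle, 6 lay above (dpy-7, col-10, rol-6, wrt-2, nhr-25 and bli-1). These 6 are collagens, a warthog gene and a moulting gene, of the groups already described, so they give no separate view of the tissue. The median array difference of the 14 markers ran from 0.03 to 1.42 in the treated arrays against -0.03 to 0.03 in the control. Of the markers that define the tissue, elt-3 and lin-26 were not members. Of 14 intestinal markers 1 lay above, the gut esterase ges-1, of 15 body wall muscle markers 1, ttn-1, of 15 neuronal markers none lay outside, and of 15 pharynx markers 2 lay below (13.3%). The part of the amount of hypodermis or of its stage in the cuticle counts was not tested.

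**Figure D2:**
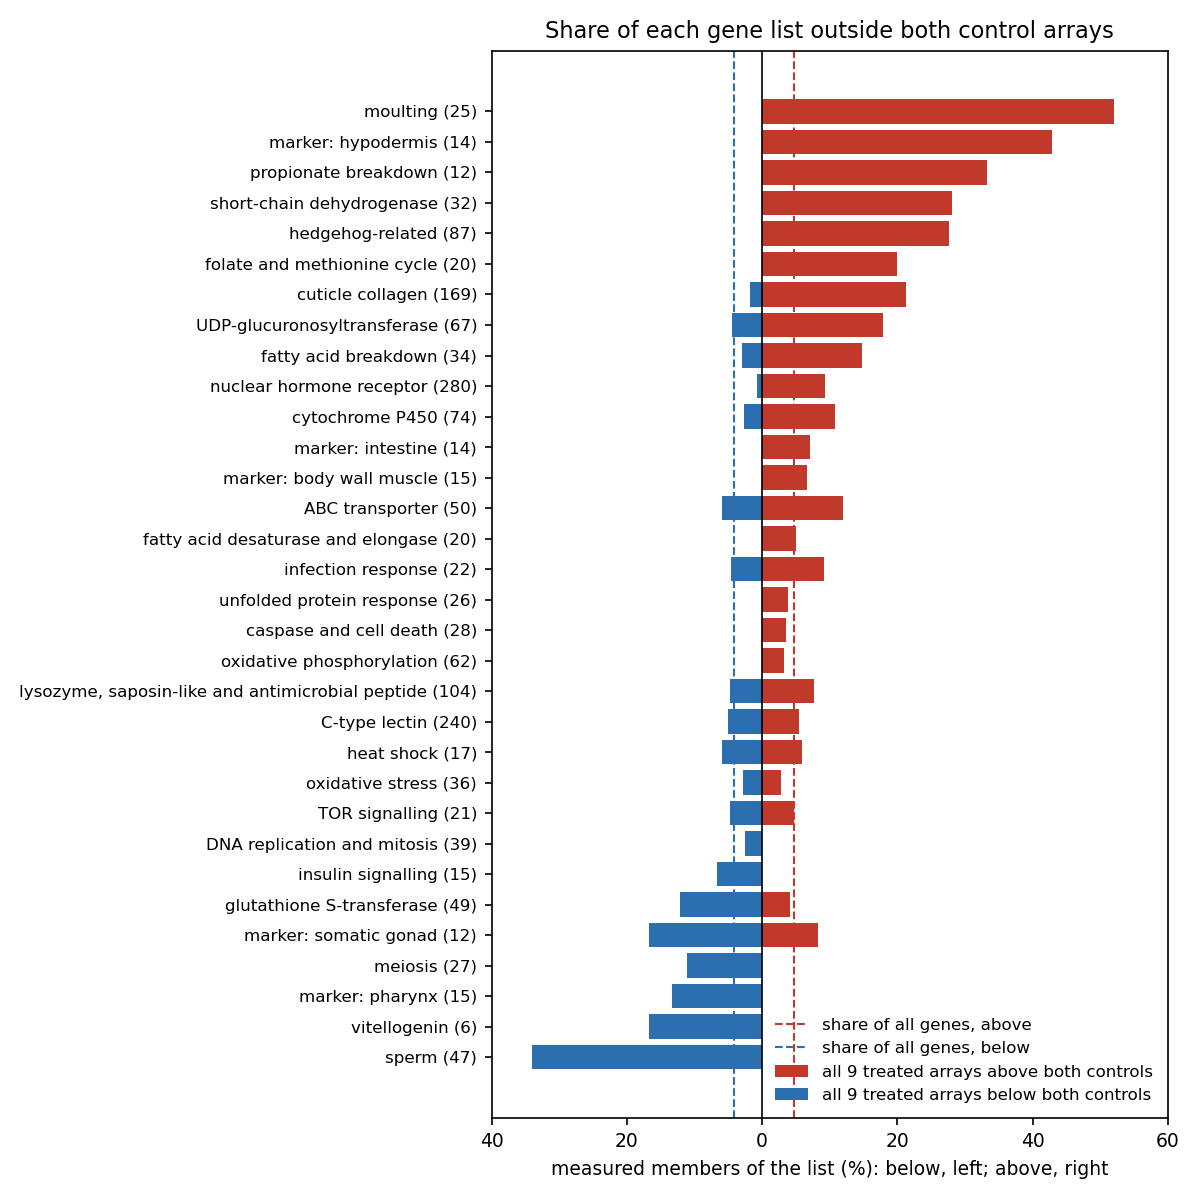
Share of the measured genes of each list (%, x axis) whose 9 treated arrays lay above both control arrays (right) or below both (left); lists are on the y axis with their number of measured genes, and lists with no member on either side are left out. Dashed lines are the shares over all genes, 4.72% above and 4.18% below. Moulting reaches 52.0% above and sperm 34% below, with every major sperm protein copy counted as a gene.

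The enzyme and receptor families gave smaller shares above than the moulting list (52%). The short-chain dehydrogenases (28.1%) and propionate breakdown (33.3%) had larger shares than the cuticle collagens (21.3%) and hedgehog-related genes (27.6%). Some genes of the enzyme and receptor families passed the test across all genes. In limma's test of the mean of the 3 compounds against the control, 41 probe sets were higher (0.153%) and 7 lower (0.0262%). Of these, 33 higher and 7 lower also met the order rule. These calls rest on both control arrays. With either of them left out limma called none, although 656 and 666 probe sets were higher and 500 and 501 lower at an unadjusted p under 0.05, and with any 1 of the tryptophan-betaxanthin arrays left out, 8 to 12 remained. No probe set passed with each compound separately and 1 sign in limma's fit of all arrays, where 326 did at an unadjusted p under 0.05. With array weights 45 did.

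The propionate shunt is an alternative route of propionate breakdown that is induced when vitamin B12 is scarce, and the receptors nhr-10 and nhr-68 switch it on. Of 12 genes of propionate breakdown, nhr-68, acdh-1, ech-6 and mmab-1 lay above, and 4 genes passed, these being nhr-68, acdh-1, ech-6 and hach-1, with a list median of 0.29. acdh-1, the acyl-CoA dehydrogenase of the shunt, gave 8.75 and 8.58 in the control, 9.88, 9.83 and 9.97 with tryptophan-betaxanthin, 9.35, 9.21 and 9.06 with the methyl ester and 9.90, 10.33 and 10.35 with the benzyl ester. ech-6, its enoyl-CoA hydratase, gave 9.49 and 9.46, then 10.21, 10.26 and 10.22, then 10.03, 9.88 and 9.72, and then 10.47, 10.68 and 10.48. The methyl ester arrays of both genes lay between the control and the other compounds. The rise was 1.1 ± 0.13 for acdh-1 and 0.74 ± 0.09 for ech-6 (limma, adjusted p = 0.0197 and 0.0275), and the methyl ester was lower than the benzyl ester by 0.99 and 0.67 on the log2 scale, differences of -0.99 (-1.29 to -0.68) and -0.67 (-0.89 to -0.45), both past the threshold. The receptor nhr-68 gave 4.71 and 4.88, then 5.61, 5.45 and 5.64, then 5.71, 5.51 and 5.67, and then 6.05, 6.25 and 6.32. It rose by 1.00 ± 0.10 (limma, adjusted p = 0.00889). The benzyl ester exceeded tryptophan-betaxanthin by 0.64 (0.40 to 0.88), while the methyl ester minus tryptophan-betaxanthin difference was 0.06 (-0.17 to 0.30). hach-1, the next hydrolase of the shunt, passed in the mean but did not meet the rule, since the methyl ester arrays, at 5.99, 5.82 and 5.42, overlapped the control at 5.58 and 5.45.

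Of 34 genes of fatty acid breakdown, 5 lay above and 1 below, with a median of 0.38, which fell to 0.22 with the third trial left out. The acyl-CoA oxidase acox-1.4 gave 5.08 and 5.02 in the control, 5.39, 5.48 and 5.59 with tryptophan-betaxanthin, 6.11, 6.01 and 6.41 with the methyl ester and 5.71, 6.02 and 5.97 with the benzyl ester. daf-22, the thiolase that ends peroxisomal beta-oxidation of ascaroside side chains, gave 6.86 and 7.05, then 7.44, 7.49 and 7.61, then 7.73, 7.76 and 7.81, and then 7.50, 7.90 and 7.77. Both genes are members, so their treated arrays lie above the control by construction. Their mean rises were 0.80 ± 0.12 and 0.71 ± 0.11 (limma, adjusted p = 0.0463 for both). The methyl ester exceeded tryptophan-betaxanthin by 0.69 (0.41 to 0.97) in acox-1.4, and in daf-22 the difference of 0.25 (0.00 to 0.51) did not pass. The transporter gene pmp-5, of the peroxisomal ABC transporter family, rose by 1.42 ± 0.19 (limma, adjusted p = 0.0277), from 5.91 and 6.03 in the control to 7.73, 7.75 and 7.50, to 6.79, 6.94 and 6.10, and to 7.75, 7.94 and 8.05. The third methyl ester array came within 0.07 of the higher control array. The member below was ech-9, an enoyl-CoA hydratase family gene, whose difference of -1.28 did not pass (limma, adjusted p = 0.451).

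Genes that modify foreign compounds were found on both sides. Of 74 cytochrome P450 genes, 8 lay above and 2 below (median 0.17). cyp-13B1 gave 2.75 and 2.85 in the control, 3.24, 3.14 and 3.17 with tryptophan-betaxanthin, 3.67, 3.36 and 3.69 with the methyl ester and 4.14, 4.29 and 4.06 with the benzyl ester, a rise of 0.84 ± 0.10 in the mean (limma, adjusted p = 0.0232). Its 3 groups were ordered, with the benzyl ester 0.98 (0.74 to 1.22) above tryptophan-betaxanthin. cyp-35A2 passed in the mean as well, by 2.14 ± 0.28 (limma, adjusted p = 0.0277), yet 3.95, 3.72 and 3.40 with tryptophan-betaxanthin came down to the control at 3.37 and 3.36, whereas the ester arrays ran from 5.78 to 7.18. The methyl ester exceeded tryptophan-betaxanthin by 3.00 (2.34 to 3.66). Of 67 UDP-glucuronosyltransferases, 12 lay above and 3 below (median 0.20), and ugt-48 passed with a rise of 0.91 ± 0.13 (limma, adjusted p = 0.0361). Of 32 short-chain dehydrogenases, 9 lay above and none below (median 0.24), and dhs-14 and dhs-27 passed. dhs-14 gave 7.17 and 7.22, then 7.68, 7.60 and 7.72, then 7.65, 7.94 and 8.20, and then 8.76, 8.75 and 9.08, a rise of 0.96 ± 0.14 (limma, adjusted p = 0.037). The benzyl ester arrays were the highest and did not overlap with the others. The glutathione S-transferases went the other way in number, with 2 of 49 above and 6 below (median 0.10). gst-12 gave 7.32 and 7.23 in the control, 6.69, 6.38 and 6.80 with tryptophan-betaxanthin, 6.26, 5.78 and 5.12 with the methyl ester and 5.31, 5.08 and 5.44 with the benzyl ester. Its mean difference of -1.40 ± 0.24 missed the threshold (limma, adjusted p = 0.0765).

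Among 280 nuclear hormone receptors, 26 lay above and 2, nhr-84 and nhr-28, below (median 0.10), and nhr-68 passed. Of 20 genes of the folate and methionine cycle, mel-32, a serine hydroxymethyltransferase, gcst-1, of the glycine cleavage system, dao-3, a methylenetetrahydrofolate dehydrogenase, and cth-1, a cystathionine gamma-lyase, lay above (median 0.26). None of these 4 passed in the mean. The gene of the list that did was the folate transporter folt-2, outside the rule, since the methyl ester arrays, at 6.04, 6.18 and 5.05, overlapped the control at 5.95 and 5.59.

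Other genes that passed have no place in these groups. hmit-1.1, a myo-inositol transporter, gave 5.78 and 5.91 in the control, 6.61, 6.52 and 6.67 with tryptophan-betaxanthin, 6.90, 6.87 and 6.97 with the methyl ester and 6.79, 6.88 and 7.01 with the benzyl ester. It rose by 0.96 ± 0.08 (limma, adjusted p = 0.006), and the esters differed by 0.02 (-0.18 to 0.22). drd-5, named for its lower expression under dietary restriction, rose by 0.73 ± 0.08 (limma, adjusted p = 0.0146), and the esters differed by -0.00 (-0.19 to 0.19). C35A5.3 gave 4.15 and 4.29 in the control, 5.93, 6.23 and 6.26 with tryptophan-betaxanthin, 5.25, 4.83 and 5.13 with the methyl ester and 7.17, 7.60 and 7.09 with the benzyl ester. All 3 groups were apart from each other, and from the control by construction. The mean rise was 1.94 ± 0.16 (limma, adjusted p = 0.006), and the methyl ester was below the benzyl ester by a difference of -2.22 (-2.58 to -1.85). K08D8.3 had the same order of groups, with rises of 1.02, 0.47 and 2.19. K03D3.2 had another order, with 0.90 for tryptophan-betaxanthin, 1.85 for the methyl ester and 1.95 for the benzyl ester. Y38H6C.23 had rises of 0.61, 0.80 and 2.01.

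**Figure D3:**
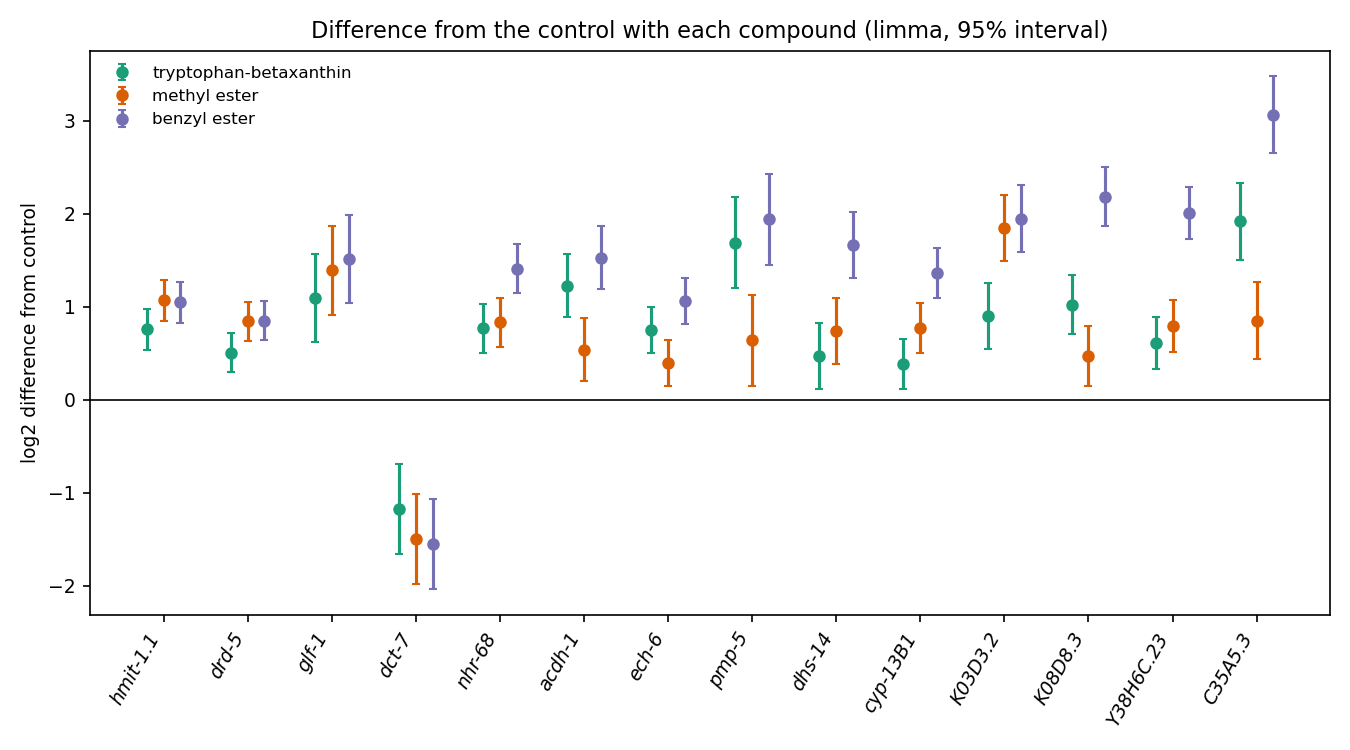
Difference from the control on the log2 scale (y axis) of 14 genes (x axis) with each compound; points are limma estimates of 3 arrays against 2 and bars are 95% intervals. The genes were chosen after their values were seen: hmit-1.1, drd-5, glf-1 and dct-7 show intervals of the esters that overlap widely, and C35A5.3, K08D8.3, acdh-1 and pmp-5 show the methyl ester below the benzyl ester.

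The 8 genes that passed in the mean without meeting the rule were T16G1.6, hach-1, far-3, dhgd-1, F10D2.8, folt-2, cyp-35C1 and ckb-4. In each of them at least 1 treated array reached the range of the control or passed beyond it. far-3, a fatty acid and retinol binding protein, gave 3.92 and 4.03 in the control and 4.07, 3.88 and 4.27 with tryptophan-betaxanthin, but 6.71, 6.39 and 6.98 with the methyl ester and 5.75, 6.34 and 5.49 with the benzyl ester. In hach-1, folt-2 and dhgd-1 the group without a response was the methyl ester, with differences of 0.23, -0.01 and 0.04, and in F10D2.8 and cyp-35C1 the tryptophan-betaxanthin differences were -0.29 and -0.21.

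The lowered genes ranked first had mixed roles. The smallest difference was at least 1 log2 unit in 11 probe sets. Of the 12 genes ranked first, cnc-7 is a caenacin, of a family of antimicrobial peptides, fipr-29 belongs to a family induced by fungal infection, clec-70 codes for a C-type lectin domain, sri-40 for a predicted chemoreceptor and ssp-16 for a sperm-specific protein. The others were dct-7, T20F10.9, C17F3.3, K11H12.6, ZK354.7, C35E7.9 and F21C3.6. The families of cnc-7, fipr-29 and clec-70 had members on both sides. Of the lysozymes, saposin-like proteins and antimicrobial peptides, 8 lay above (7.69%) and 5 below (4.81%). Of 240 C-type lectins 13 lay above (5.42%) and 12 below (5.0%). Over all genes the shares were 4.72% above and 4.18% below, so members on both sides are not particular to these families. The caenacin cnc-3 lay above, with a mean difference of 1.32 ± 0.21 (limma, adjusted p = 0.0594).

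dct-7 gave 7.40 and 7.40 in the control, 6.36, 6.12 and 6.18 with tryptophan-betaxanthin, 5.83, 5.58 and 6.28 with the methyl ester and 5.60, 5.73 and 6.19 with the benzyl ester. The third-trial array of each ester was the nearest of its group to the control. Its difference of -1.41 ± 0.18 passed (limma, adjusted p = 0.0277), and the ester minus tryptophan-betaxanthin differences of -0.32 (-0.76 to 0.11) and -0.38 (-0.81 to 0.05) did not. T20F10.9 gave 3.14 and 3.26, then 1.59, 1.92 and 1.5, then 1.55, 1.40 and 0.97, and then 2.18, 2.15 and 1.23. It also passed, with -1.59 ± 0.24 (limma, adjusted p = 0.0463), although every treated array was below the median signal of all probe sets, 2.28. cnc-7 gave 7.78 and 7.73, then 6.55, 6.29 and 6.32, then 6.50, 6.03 and 5.73, and then 6.97, 6.50 and 5.53. clec-70 gave 7.19 and 7.20, then 5.69, 5.95 and 6.11, then 5.82, 6.34 and 5.81, and then 6.32, 6.03 and 5.54. Both lay below the control in every treated array by construction, and missed the threshold with -1.49 ± 0.31 and -1.24 ± 0.20 (limma, adjusted p = 0.144 and 0.063). For clec-70 the 3 compounds gave nearly equal differences, with intervals of -0.40 to 0.55, -0.43 to 0.52 and -0.44 to 0.50 for the pairs.

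**Figure D4:**
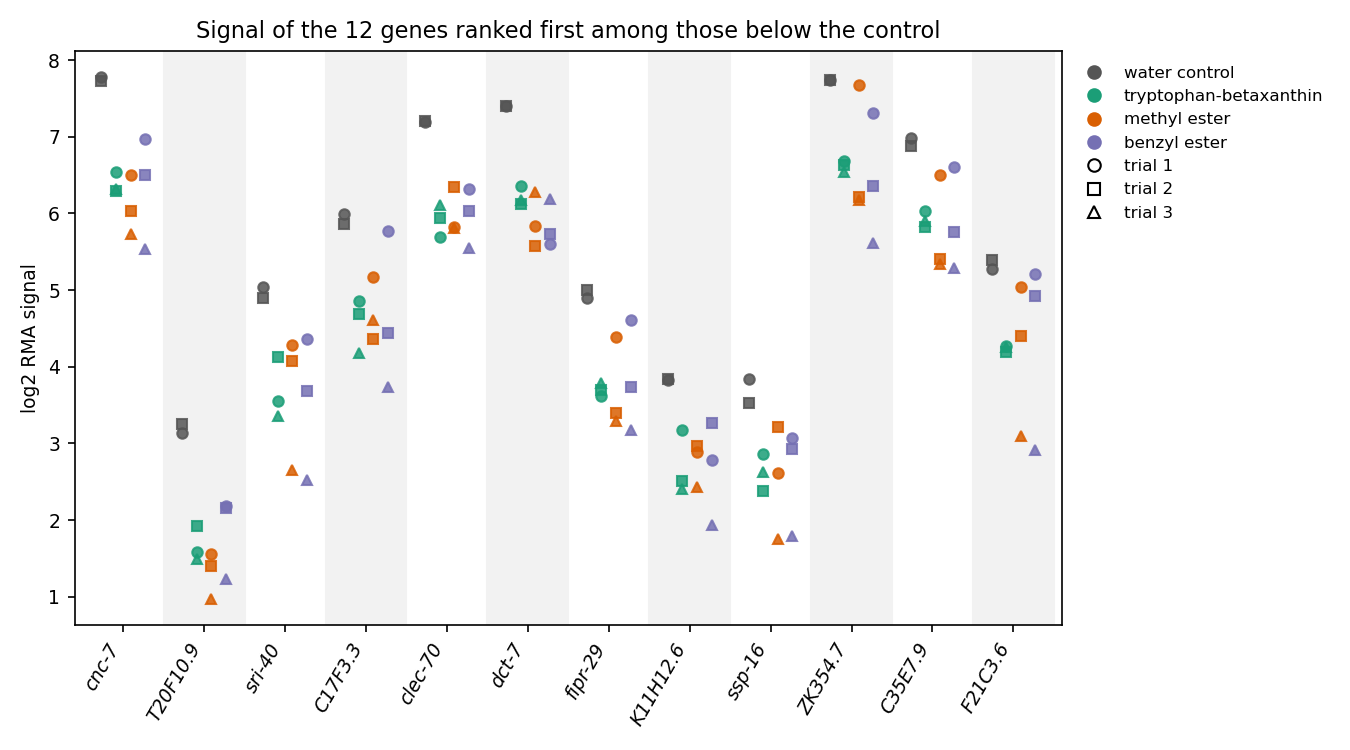
Log2 RMA signal (y axis) of the 12 genes ranked first among those below the control (x axis, in rank order); each point is 1 array, coloured by group, with a marker for each trial. All treated arrays lie below the control by construction; in dct-7 they lie between 5.58 and 6.36, while in ZK354.7 the first methyl ester array, at 7.67, nearly reaches the control at 7.74.

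Not all of these genes were lowered alike in every trial. ZK354.7 gave 7.75 and 7.74 in the control, 6.69, 6.63 and 6.54 with tryptophan-betaxanthin, 7.67, 6.22 and 6.18 with the methyl ester and 7.31, 6.36 and 5.61 with the benzyl ester. The tryptophan-betaxanthin arrays were alike, and the first arrays of both esters were nearer to the control than the later ones, as they also were in F21C3.6 and C35E7.9. W06H8.2, nspe-4, nspb-7 and chil-22 passed in the mean with lesser falls under tryptophan-betaxanthin. W06H8.2 gave 5.34 and 5.02 in the control, 4.91, 5.0 and 4.61 with tryptophan-betaxanthin, 3.58, 3.49 and 3.18 with the methyl ester and 2.91, 3.14 and 3.38 with the benzyl ester. The tryptophan-betaxanthin arrays were close to the lower control array, and the benzyl ester minus tryptophan-betaxanthin difference was -1.70 (-2.07 to -1.33).

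Of 47 sperm genes, 16 lay below and none above, with a median difference of -0.59. Of these, 11 code for major sperm proteins, a family of near-identical copies whose probe sets may read each other's RNA, so that they do not count as separate genes. The other 5 were spe-11, spe-26, spe-42, ssp-16 and ssp-19. spe-26, needed for spermatocyte division, gave 6.22 and 6.30 in the control, 5.46, 5.48 and 5.03 with tryptophan-betaxanthin, 5.76, 5.43 and 4.48 with the methyl ester and 5.66, 5.58 and 4.63 with the benzyl ester. spe-11, a sperm-supplied factor of the early embryo, gave 8.67 and 8.66, then 7.80, 7.69 and 7.70, then 8.56, 7.86 and 7.37, and then 8.50, 8.18 and 6.94. The mean differences with the 3 compounds were -0.93, -1.03 and -0.96 in spe-26 and -0.93, -0.73 and -0.78 in spe-11. The lowest ester arrays were in trial 3, and neither gene passed (limma, adjusted p = 0.39 and 0.467). The pair intervals of spe-26 reached from -0.88 to 0.75. With the third trial left out, the differences were -0.78, -0.66 and -0.63 in spe-26. In spe-11 they were then -0.92, -0.45 and -0.32, so that its likeness between compounds rested on trial 3.

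Other germline groups had smaller shares of members than the sperm list (34%), a share that counts every major sperm protein copy as a gene. None of 27 oocyte and eggshell genes and none of 24 genes of germline stem cells and germ granules met the rule, although their medians were -0.72 and -0.52. The tryptophan-betaxanthin medians were 0.10 and 0.07. Of 27 meiosis genes, syp-3 and syp-4, of the synaptonemal complex, and lab-1 lay below (11.1%, against 4.18% over all genes). The meiosis median was -0.58. Of 6 vitellogenins vit-5 lay below (16.7%), with 10.12 and 10.16 in the control, 9.87, 10.09 and 9.86 with tryptophan-betaxanthin, 9.60, 9.81 and 7.81 with the methyl ester and 9.34, 9.36 and 6.99 with the benzyl ester. None of these passed. The array medians of the vitellogenin list, at -2.04 and -3.0 in the third-trial ester arrays, lay far below the -0.56 to 0.06 of the other treated arrays. Of 12 somatic gonad markers, 1 (ceh-18) lay above and 2 (inx-8 and inx-9) below, with list medians between -0.23 and 0.11 in the treated arrays. The part of germline size in the sperm counts was not tested.

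**Figure D5:**
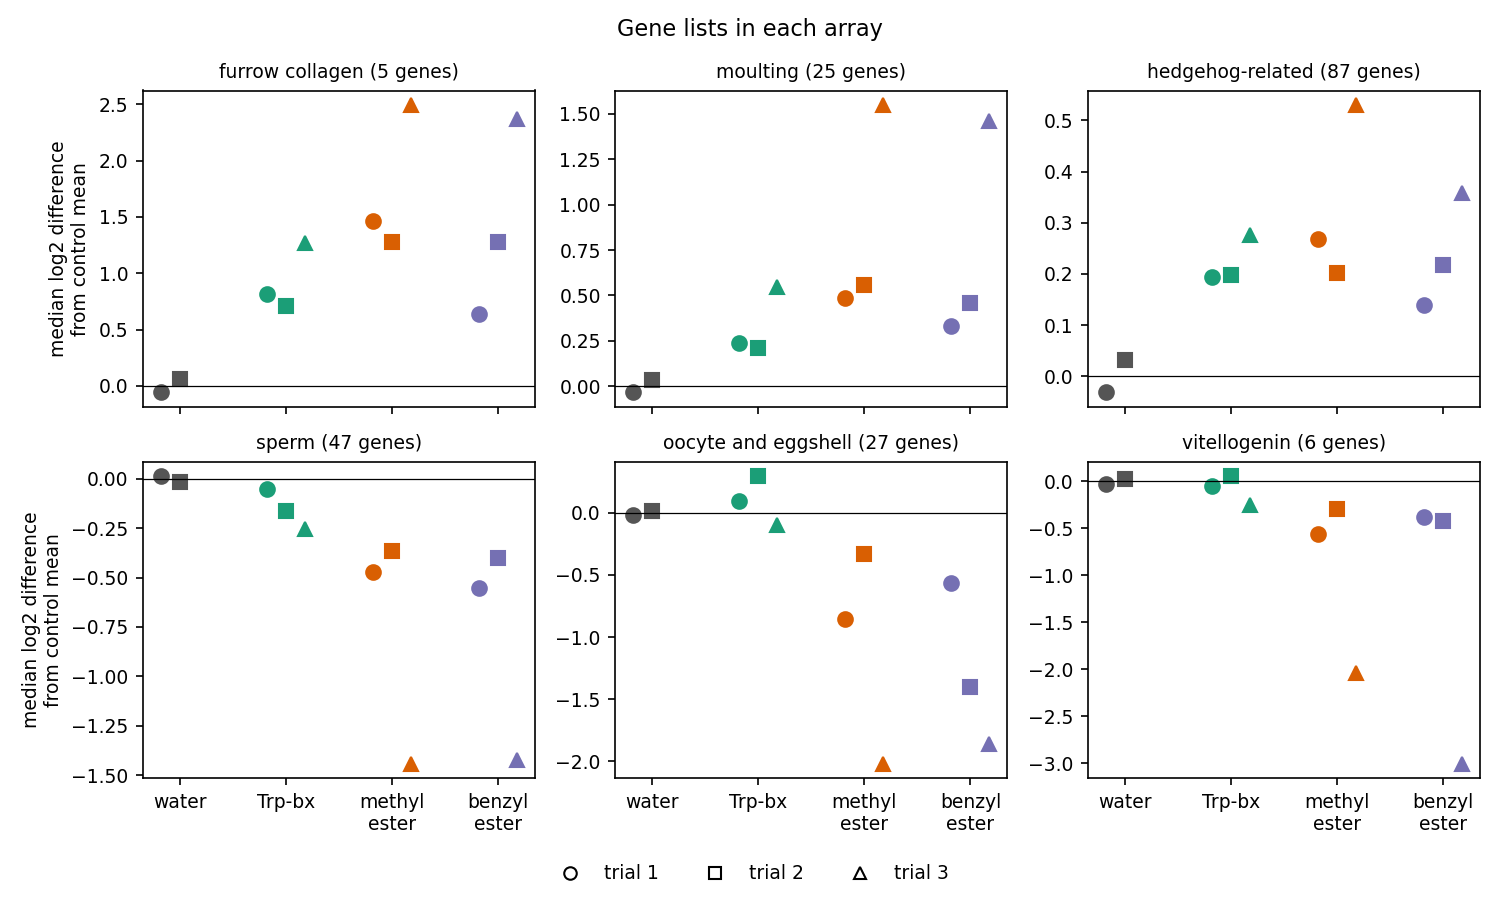
Median difference from the control mean on the log2 scale (y axis) over the genes of 6 lists in each of the 11 arrays, grouped by treatment (x axis; Trp-bx is tryptophan-betaxanthin), with a marker for each trial. The furrow collagen, moulting and hedgehog-related lists lie above 0 in all 9 treated arrays and the sperm list below 0, most of all in the third-trial ester arrays, while the oocyte and eggshell list lies on both sides of 0 with tryptophan-betaxanthin.

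Genes of TOR signalling were members at shares near those of all genes, which were 4.72% above and 4.18% below. Of 21 TOR genes, ife-2, an isoform of the cap-binding protein eIF4E, lay above (4.76%). daf-15, the worm Raptor, lay below (4.76%), and the list median was -0.10. daf-15 gave 5.52 and 5.50 in the control, 5.38, 5.43 and 5.29 with tryptophan-betaxanthin, 5.21, 5.3 and 5.25 with the methyl ester and 5.34, 5.24 and 5.39 with the benzyl ester. Its mean difference of -0.20 ± 0.07 did not pass (limma, adjusted p = 0.426). rict-1, the worm Rictor, was not a member, with 4.08, 4.57 and 4.18 under tryptophan-betaxanthin against 3.98 and 4.14 in the control. Its signal was lower under both esters. Without trial 3, the rict-1 differences were -0.24 (methyl ester), -0.42 (benzyl ester) and 0.26 (tryptophan-betaxanthin). None of them passed (limma, adjusted p = 0.496, 0.173 and 0.600). With trial 3 kept and control array 1 or 2 left out, the methyl ester gave -0.37 or -0.21. The benzyl ester then gave -0.50 or -0.34. let-363, the TOR kinase itself, overlapped the control with every compound. sinh-1, of the same complex as rict-1, lay above the control with tryptophan-betaxanthin and below it with the benzyl ester. mlst-8, shared by both TOR complexes, differed by 0.19, -0.56 and -0.34 with the 3 compounds and was no member. The caspases ced-3, with differences of 0.03, -0.70 and -0.82, and csp-1, with 0.40, -0.00 and 0.01, were likewise no members. None of these 3 genes passed in the mean (limma, adjusted p from 0.428 to 0.589). Of 28 genes of cell death, 1 lay above (3.57%), the nuclease nuc-1, and none below.

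The members did not always differ between compounds. The 3 pairs were compared at the same dose and time, with p-values adjusted over all probe sets and pairs together. Over all probe sets, the methyl ester and tryptophan-betaxanthin differed in 266 (0.994%), the benzyl ester and tryptophan-betaxanthin in 358 (1.34%) and the esters in 67 (0.25%). All 3 counts were larger with the trial number as a replicate block, as given in the last section. Among the 1258 members above, the first pair differed in 21 (1.67%), 19 of them higher with the methyl ester, the second in 30 (2.38%), each higher with the benzyl ester, and the esters in 18 (1.43%), of which 17 were lower with the methyl ester. Among the 1112 members below, these numbers were 2 (0.18%), 10 (0.899%) and 1 (0.0899%). These counts depended on single arrays. Without either control array or any tryptophan-betaxanthin array, the counts over all probe sets fell to between 15 and 62 for the first 2 pairs and between 25 and 32 for the esters. Without a methyl ester array, in order of trial, the first pair gave 56, 953 and 264 and the second 123, 927 and 1009. Without a benzyl ester array they gave 162, 142 and 443, and 159, 74 and 524. Over these, the pair of the esters ran from 37 to 131. A pair difference that did not pass does not show that the compounds act alike, as the width of the intervals for the lpr genes shows.

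With the third trial left out, 430 probe sets were higher and 164 lower in the mean of the compounds, and 36 passed with each compound, 23 of them higher and 13 lower. Of the 36, 22 were among the members above, 10 among those below and 4 outside the rule. The passing genes included lpr-4, lpr-5, lpr-6, sym-1, glf-1, gst-35, T10B5.8, hmit-1.1, pmp-5, ugt-21 and mtl-2 above, and dct-7, cnc-7, clec-70, spe-26 and T20F10.9 below. mtl-2, a metallothionein, gave 2.15 and 2.03 in the control, 2.88, 2.88 and 2.58 with tryptophan-betaxanthin, 3.68, 3.65 and 4.55 with the methyl ester and 4.31, 4.59 and 7.61 with the benzyl ester. The third benzyl ester array was about 3 log2 units above the other 2. Of the 4 outside the rule, dod-24, an intestinal gene of the infection response, gave 4.20 and 4.14 in the control, 2.18 and 2.22 with tryptophan-betaxanthin, 3.02 and 2.86 with the methyl ester and 1.66 and 2.43 with the benzyl ester in trials 1 and 2, but 4.98, 5.56 and 4.95 in trial 3. Also outside the rule, dod-17 gave 4.54 and 4.64, then 3.19, 2.81 and 4.18, then 3.45, 3.52 and 5.07, and then 3.64, 3.43 and 4.38. Both were low in all treated arrays of trials 1 and 2. In trial 3 dod-24 lay above the control with every compound, and dod-17 did so with the methyl ester and lay a little below it with the other compounds.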

How the data were processed

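Total RNA of whole animals was hybridised to C. elegans Gene 1.1 ST arrays. The authors deposited log2 signals made with RMA (background correction, quantile normalisation and probe summary), in Affymetrix Expression Console per the labels, whereas the methods name Transcriptome Analysis Console. Software versions: not given in the sources used here. In all, 29317 probe sets were deposited. Those with no gene symbol (2556) were left out, 26281 of the 26761 tested had 1 symbol, and 24801 matched RefSeq (WBcel235) by identifier. No coordinates are given.

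The signals were used as deposited, with no filter. limma 3.58.1 (R 4.3.3) was fitted to all 11 arrays in 4 groups with no covariate, and p-values were adjusted by Benjamini-Hochberg with a threshold of 0.05. The script was tested on simulated data. Genes named were the 16 highest above and 12 below by the smallest group difference, up to 3 per list, up to 6 per direction by p, and gld-1, let-363, daf-15, rict-1, sinh-1, mlst-8, ced-3 and csp-1; hach-1, folt-2, far-3, cyp-35A2, cyp-35C1, dod-17, dod-24, mlt-8 and others in lists were added after their values were seen. The members and the 40 gene lists were chosen with earlier results of these data known. The number of arrays limits the precision. Alternatives covered scaling, filters, the variance model, the trial, and each array left out.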

Additional observations from a re-analysis of the deposited data

Results flagged for a closer look

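Among the genes named by the rule as members of the common response, 18 differed between compounds in a test of the difference itself (limma, adjusted p over all probe sets and the 3 pairs). Their differences from the control were shared in sign and unequal in size. For each gene of this section only the pair with the smallest adjusted p is given, so a difference is not particular to the compound named. The benzyl ester exceeded tryptophan-betaxanthin by 1.05 in K03D3.2, 1.40 in Y38H6C.23, 0.98 in the cytochrome P450 cyp-13B1, 1.20 in the short-chain dehydrogenase dhs-14, 0.64 in the receptor nhr-68 and 0.73 in the glucuronosyltransferase ugt-48. It was below tryptophan-betaxanthin in W06H8.2 (-1.70), gst-12 (-1.35), nspb-7 (-1.15) and nspe-4 (-0.74).

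The methyl ester was below the benzyl ester in C35A5.3 (-2.22), K08D8.3 (-1.72), acdh-1 (-0.99), ech-6 (-0.67) and the transporter gene pmp-5 (-1.30). It exceeded tryptophan-betaxanthin in acox-1.4 (0.69) and cth-1 (1.07) and was below it in the chitinase-like chil-22 (-0.93). Adjusted p-values ran from 0.00167 (C35A5.3 and K08D8.3) to 0.046 (gst-12), and in all 18 the groups had 3 arrays each.

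Of the genes named after their values were seen, 10 differed as well. The methyl ester exceeded tryptophan-betaxanthin by 3.00 in cyp-35A2, 2.62 in far-3, 2.77 in T16G1.6, 2.2 in F10D2.8, 2.11 in cyp-35C1 and 0.69 in ckb-4. It was below the benzyl ester in hach-1 (-1.75), folt-2 (-3.28) and dhgd-1 (-1.68), and the benzyl ester exceeded tryptophan-betaxanthin by 0.91 in dhs-27. Of these 10, cyp-35A2 and dhs-27 met the order rule and 8 did not.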

How the results depend on the processing

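The counts depended on the spread estimate and on the control more than on scaling. Against 41 probe sets higher and 7 lower in the mean of the compounds, cyclic loess gave 3 lower, probe sets above the median signal 4 lower and all probe sets 3 lower. An intensity trend with a robust prior gave 22 and 3, with pair counts of 109 (methyl ester against tryptophan-betaxanthin) and 129 (benzyl ester against it). Treating all 9 arrays as 1 group called 0 and 0 with limma (946 higher and 903 lower at an unadjusted p under 0.05). Array weights gave 604 and 318, 45 with every compound, and 1441, 1669 and 168 for the 3 pairs (266, 358 and 67 before). Without the third trial these were 430, 164, 36, 975, 1765 and 360, and without the third-trial arrays of both esters (added after the data were seen) 400, 169, 47, 1000, 2109 and 328. All 48 calls were kept in both. With the trial number as a replicate block they were 80, 17, 2, 2121, 2188 and 250, the 2 being dod-17 and dod-24. Not every same-numbered pair of arrays deviated together (r from -0.0609 to 0.742 between compounds, against -0.646 to 0.497 for other trials, and from -0.0467 to 0.134 with the control), so the counts with the block are given here only.

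A gap of at least 0.2 left 256 above and 169 below, of 1258 and 1112. Comparing trials 1 and 2 with their own control gave 2489 and 2118. With 1 array left out the ranges were 1330 to 2930 above, 1164 to 2629 below, 0 to 62 higher, 0 to 14 lower, 0 to 2 with every compound, and 15 to 953, 21 to 1009 and 25 to 131 for the pairs. The highest rule counts and the 0 calls came without a control array, whereas the lowest first 2 pair counts, 15 and 21, came without the second tryptophan-betaxanthin array. No named gene that passed turned its direction; sinh-1, at -0.03, turned to 0.03 without the third trial and with the replicate block. The share above among members was 53.1%, and 44.5% after median centring. The cause of these shifts was not tested.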
